A study of Mus musculus with 10 samples.

Results

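Eph receptors and ephrins are the guidance proteins that sort epithelial cells along the gland of the colon, the crypt. Expression of 10 of these genes was taken from the 33632 gene IDs of a table of RNA sequencing counts: the receptors Ephb2, Ephb3, Ephb4, Ephb6, Epha1 and Epha2, and the ligands Efnb1, Efnb2, Efna1 and Efna4. They were chosen by name from a table that pairs Ensembl IDs with mouse symbols, and all 10 had a row and passed the filter on low counts. The 10 libraries came from mouse colon crypts and fell into groups of 5. The flox mice carried Sox21fl/fl, both copies of Sox21 flanked by loxP sites, without Cre. The CKO mice carried the same alleles and Lgr5-EGFP-IRES-CreERT2/+, a knock-in at 1 Lgr5 allele that makes a green fluorescent protein and a tamoxifen-inducible Cre in Lgr5-positive stem cells. Both groups are labelled normal diet and normal liver, and the labels state no age, sex or tamoxifen schedule. Cre is thus made in the stem cells at the crypt base, whose progeny inherit a recombined allele, while the libraries hold whole crypts. Cre and the Lgr5 knock-in are present in the CKO group only, so their effects cannot be told apart from those of Sox21 loss.

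An Eph receptor is a tyrosine kinase of the cell surface, and its ephrin ligand sits on the surface of a neighbouring cell. Ephrin-A ligands are held by a lipid anchor and mostly bind EphA receptors, ephrin-B ligands cross the membrane and mostly bind EphB receptors, and contact sends a signal into both cells that often ends in repulsion. In the intestine EphB2 and EphB3 are targets of beta-catenin and TCF and are strongest at the crypt base, ephrin-B1 and ephrin-B2 are strongest towards the crypt top, and mice without EphB2 and EphB3 lose the order of cells along the crypt. A count per gene from whole crypts gives the sum over these positions and does not show a gradient, and fewer cells of a type cannot be told apart from less RNA per cell.

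Promoter sequences are shown for the base receptors Ephb2 and Ephb3, whose levels varied together over libraries, for their ligand Efnb1, and for Epha2, which holds a TCF motif. Each runs from 250 bases before to 50 after the start of transcription, 5′ to 3′ on the strand of the gene, in RefSeq's GRCm38.p6 table. Capitals mark matches to the TCF/LEF motif, searched on both strands as CTTTG followed by a pair of bases that are each A or T.
Ephb2, chr4:136835963-136836262, minus strand: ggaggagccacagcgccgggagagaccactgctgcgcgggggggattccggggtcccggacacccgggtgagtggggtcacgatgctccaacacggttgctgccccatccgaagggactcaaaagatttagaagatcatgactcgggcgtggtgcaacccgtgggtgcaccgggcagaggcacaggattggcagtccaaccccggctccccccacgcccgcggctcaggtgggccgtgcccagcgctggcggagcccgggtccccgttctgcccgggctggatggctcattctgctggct
Ephb3, chr16:21204545-21204844, plus strand: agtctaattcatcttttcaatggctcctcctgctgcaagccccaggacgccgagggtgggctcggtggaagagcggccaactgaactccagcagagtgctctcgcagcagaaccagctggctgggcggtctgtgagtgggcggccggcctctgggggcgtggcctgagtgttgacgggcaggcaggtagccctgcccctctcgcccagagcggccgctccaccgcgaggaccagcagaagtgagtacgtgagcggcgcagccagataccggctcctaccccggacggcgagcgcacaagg
Efnb1, chrX:99135811-99136110, plus strand: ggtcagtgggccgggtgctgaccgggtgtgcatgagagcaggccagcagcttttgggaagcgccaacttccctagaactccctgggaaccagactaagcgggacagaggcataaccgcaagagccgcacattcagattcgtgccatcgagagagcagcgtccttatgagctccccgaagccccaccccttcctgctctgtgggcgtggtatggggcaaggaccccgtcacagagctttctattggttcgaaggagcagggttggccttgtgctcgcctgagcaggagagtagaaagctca
Epha2, chr4:141300971-141301270, plus strand: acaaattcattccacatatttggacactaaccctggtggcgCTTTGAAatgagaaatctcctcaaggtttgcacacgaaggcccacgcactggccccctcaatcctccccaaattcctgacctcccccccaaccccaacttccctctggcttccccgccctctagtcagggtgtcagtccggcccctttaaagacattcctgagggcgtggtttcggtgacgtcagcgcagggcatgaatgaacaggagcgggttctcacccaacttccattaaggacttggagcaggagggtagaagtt
The 10 genes had 11 promoters in that table, since Efna1 had 2. A TCF/LEF match was found in the promoters of 2 of the genes, Epha2 and Efna4, against 16.9% of 32851 promoters of the same length. The Ephb2, Ephb3 and Efnb1 windows above held none, which says only that these letters are not in these 300 bases. The SOX motif ACAAT, searched on both strands, which no TCF/LEF match contains, occurred in 0 of the 10 genes' promoters and in 31.0% of all promoters. GC content was 68.7% in the Ephb2 window and 66.7% in the Ephb3 window, where the median of all promoters was 52.7%.

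Total counts ran from 18926634 to 23642415 per library. Mitochondrial genes took 26.5% and 29.3% of counts in flox 1 and flox 4 and 4.3% to 11.8% in the other 8, so the values without those 2 libraries are given beside the results they moved most. Sox21 stood at 1.98 to 6.53 CPM (counts scaled to a common library total, with a correction for library composition) in flox and at 3.39 to 7.79 CPM in the libraries labelled CKO, with a log2 fold change of 0.38 ± 0.34 (SE) and an edgeR adjusted p of 0.577. It was 0.05 without flox 1 and flox 4 (adjusted p = 0.990 by edgeR). Sox21 transcript level thus gives no check of the genotype labels, and which part of the gene Cre removes is not stated. The 8 epithelial markers, Epcam and keratin genes among them, summed to 16585 to 25716 CPM in flox and 12139 to 21036 CPM in CKO. In the edgeR fit 2 of them were higher and 6 lower in CKO, with a median log2 fold change of -0.15 and 0 called. Of 10 endothelial markers 7 were under 1 CPM in every library, among them Cdh5, Kdr and Tie1. The 12 fibroblast and muscle markers summed to between 25.7 and 80.8 CPM over the flox libraries. In CKO they came to 59.6 and 64.5 CPM in replicates 1 and 2 and to 140 to 219 CPM in replicates 3 to 5. The 10 of these markers that were tested were all higher in CKO, with a median log2 fold change of 0.89 and 0 called by edgeR. At an unadjusted edgeR p under 0.05 there were 4 of 10 higher, where 5.05% of all genes were, and 0 lower, where 7.91% were. Without flox 1 and flox 4 all 10 were still higher, with a median of 1.01. Whether the mix of cells differed between the groups was not tested. Immune markers summed to 35.4 to 94.9 CPM in flox and 50.5 to 78.4 CPM in CKO, and those of neurons and glia to 2.47 to 4.28 and 2.01 to 3.95 CPM.

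None of the 10 genes differed between CKO and flox past the threshold, an adjusted p under 0.05. The labels do not say that the libraries came from separate animals, so the p-values here reflect spread among libraries that could be technical. By edgeR's quasi-likelihood test 0 of 10 passed at an adjusted p of 0.05, as did 0.0% of the 14963 genes tested. At an unadjusted p under 0.05 there were 0 of 10, where 13.0% of all genes passed. DESeq2 called 0 of 10 and 0.957% of all genes with an adjusted p. In 0 of 10 genes did the groups fail to overlap, against 2.18% of all genes tested. Of the 10, 4 were higher and 6 lower in CKO, with a median log2 fold change of -0.03, from -0.74 to 0.48, where the median over all genes tested was 0.00. Without flox 1 and flox 4 the split was 5 higher and 5 lower with a median of -0.04, and edgeR called 0 of 10 (0.0% of all genes) and DESeq2 0 of 10 (0.402%).

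**Figure D1:**
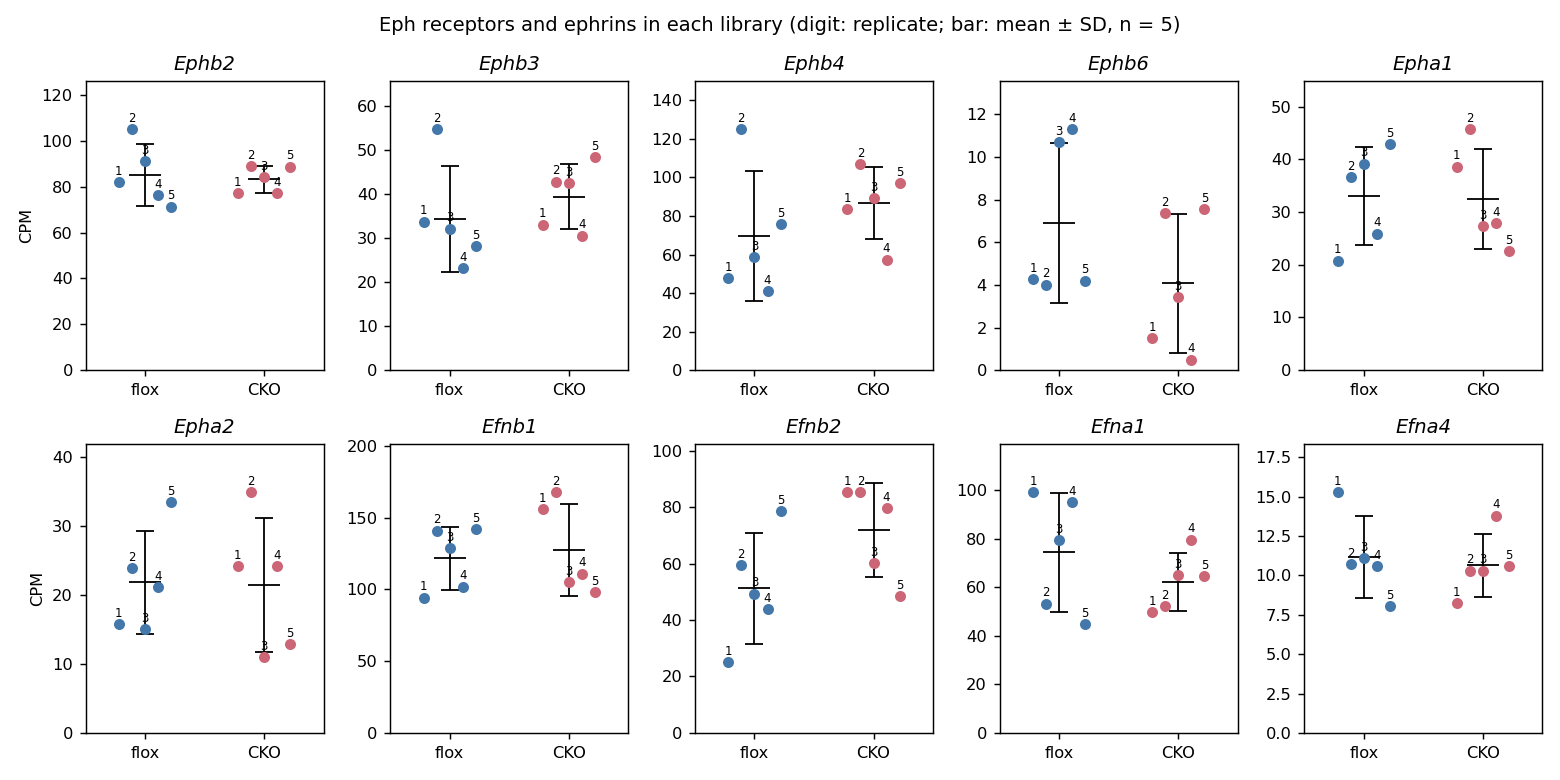
Level of each Eph receptor and ephrin in CPM (y axis from 0) in the 5 flox (blue) and 5 CKO (red) libraries; digits give the replicate, the long bar the mean and the whiskers the SD. The groups overlap in every panel, and the means of Ephb2, for example, are 85.2 and 83.3 CPM.

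Ephb2 (ENSMUSG00000028664), the receptor whose level falls from the crypt base upwards, was the steadiest of the 10. It stood at 81.8, 105, 91.2, 76.2 and 71.3 CPM in flox 1 to 5, and at 77.2, 89.0, 84.3, 77.2 and 88.7 CPM in CKO 1 to 5. The CKO values all lay inside the flox range. The means were 85.2 ± 13.5 and 83.3 ± 5.85 CPM (SD, n = 5 each). The ratio of CKO to flox was 0.978, with a 95% interval from 0.810 to 1.18 and an edgeR adjusted p of 0.906. The interval is the narrowest of the 10 genes, and a change of Ephb2 mRNA within it is not excluded by these data. It is not a limit of detection, since calls used an adjusted p over all genes tested. The highest library was 1.48 times the lowest, and the SD of log2 CPM over the 10 libraries was 0.16, against a median of 0.37 over all genes tested. Without flox 1 and flox 4 the gap was smaller, at 0.18 for Ephb2 against a median of 0.28.

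Ephb3 (ENSMUSG00000005958), the second receptor of the crypt base, stood at 33.8, 54.8, 32.2, 23.3 and 28.2 CPM in flox 1 to 5 and at 33.1, 42.9, 42.5, 30.6 and 48.4 CPM in CKO 1 to 5. Flox 2 was the highest and flox 4 the lowest of all, and the CKO libraries fell between them. The ratio of CKO to flox was 1.15, with an interval from 0.822 to 1.6 (adjusted p = 0.657 by edgeR). The log2 fold change went from 0.20 with all libraries to 0.05 without flox 1 and flox 4, and to 0.43 without flox 2 (edgeR adjusted p = 0.204).

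Ephb4 (ENSMUSG00000029710), the receptor for ephrin-B2 that is also known from veins, stood at 47.9, 125, 58.6, 41.1 and 75.8 CPM in flox 1 to 5. In CKO 1 to 5 it stood at 83.4, 107, 89.3, 57.4 and 97.2 CPM. In the flox group a single library, flox 2, lay above all CKO libraries, and 4 of 5 CKO libraries lay above the flox mean of 69.7 CPM. CKO exceeded flox by a log2 fold change of 0.32 ± 0.28 (SE), for which edgeR gave an adjusted p of 0.583. It depended on single libraries, being 0.64 without flox 2 (edgeR adjusted p = 0.187) and 0.01 without flox 1 and flox 4, the libraries of high mitochondrial share. Summed endothelial markers were 9.08 to 11.2 CPM in flox and 6.05 to 10 CPM in CKO. Of the 3 that were tested, 2 were higher in CKO and 1, Vwf, was lower in every CKO library than in any flox library (log2 fold change -0.86, adjusted p = 0.174 by edgeR and 0.000687 by DESeq2). The groups did not overlap in 2.18% of all genes tested, and DESeq2 called 0.957% of all genes with an adjusted p. The part of the endothelial markers in the Ephb4 level was not tested. Ephb4 shares 33 exon bases with Zan on the opposite strand in GENCODE M21, which leaves reads in that overlap uncertain.

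Ephb6 (ENSMUSG00000029869), an Eph receptor without kinase activity, was the lowest and the most scattered. It stood at 4.27, 4.01, 10.7, 11.3 and 4.2 CPM in flox and at 1.49, 7.35, 3.43, 0.494 and 7.57 CPM in CKO. Flox 3 and flox 4 were above all other libraries, CKO 1 and CKO 4 below all others, and the remaining 6 libraries of both groups lay between. Counts ran from 9 in CKO 4 to 240 in flox 3. The log2 fold change was -0.74 ± 0.60 (SE), and the interval of the ratio, from 0.240 to 1.49, was the widest of the 10 genes (edgeR adjusted p = 0.549).

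The EphA receptors had nearly equal group means. Epha1 (ENSMUSG00000029859), the first Eph receptor to be described, stood at 20.8, 36.6, 39.2, 25.9 and 42.9 CPM in flox and at 38.6, 45.7, 27.3, 27.9 and 22.6 CPM in CKO. Flox 1 and flox 4 were the lowest flox libraries and CKO 3, CKO 4 and CKO 5 the lowest CKO libraries. The ratio was 0.978, with an interval from 0.684 to 1.40 (edgeR adjusted p = 0.953), and its log2 fold change moved from -0.03 to -0.28 without flox 1 and flox 4. Its exons share 236 bases with Zyx on the opposite strand in GENCODE M21, so reads there are uncertain too. Epha2 (ENSMUSG00000006445), a receptor of many epithelia that binds ephrin-A1, stood at 15.8, 23.9, 15.0, 21.1 and 33.4 CPM in flox and at 24.2, 34.9, 11, 24.2 and 12.9 CPM in CKO. Both groups spanned nearly the same range, and the ratio was 0.981, from 0.604 to 1.59 (edgeR adjusted p = 0.969).

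**Figure D2:**
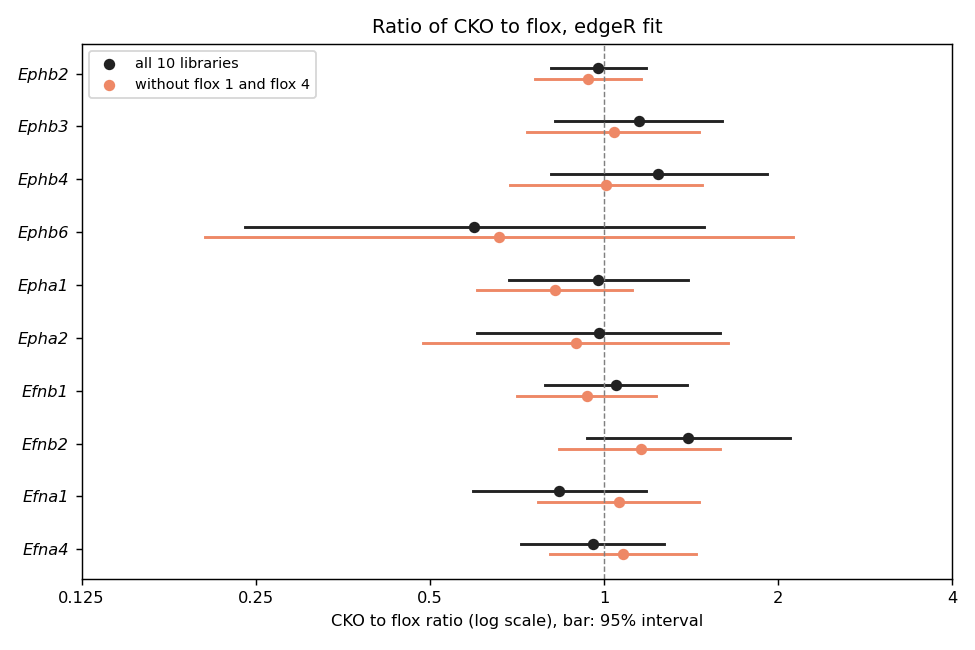
Ratio of CKO to flox (x axis, log scale) for each gene with its 95% interval, from the fit of all 10 libraries (black) and of the 8 without flox 1 and flox 4 (orange). All 20 intervals include 1; the interval of Ephb2 is the narrowest and that of Ephb6 the widest.

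Of the ligands, Efnb1 (ENSMUSG00000031217), the ephrin-B1 that faces EphB receptors, stood at 94.3, 141, 129, 102 and 142 CPM in flox and at 156, 168, 105, 111 and 98.0 CPM in CKO. CKO 1 and CKO 2 were the highest of all 10, and the other CKO libraries lay within the flox range. The group means were 122 ± 22.2 and 128 ± 32.1 CPM (SD, n = 5 each). The ratio was 1.05, with an interval from 0.790 to 1.39 and an edgeR adjusted p of 0.862. The 3 lower CKO libraries, CKO 3 to 5, are those with the higher fibroblast and muscle marker sums given above. In flox 1 to 5 these sums were 63.9, 73.6, 80.8, 25.7 and 47.5 CPM. There the libraries lowest in Efnb1, flox 1 and flox 4, did not have the highest sums. The part of these markers in the Efnb1 level was not tested.

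Efnb2 (ENSMUSG00000001300), the other ephrin-B ligand of the crypt and an arterial marker in vessels, had the smallest p of the 10. It stood at 25, 59.4, 49.4, 43.9 and 78.6 CPM in flox and at 85.4, 85.4, 60.1, 79.8 and 48.5 CPM in CKO. Of the CKO libraries 4 of 5 lay above the flox mean of 51.3 CPM, while CKO 5 lay below it and flox 5 above 2 CKO libraries. The log2 fold change was 0.48 ± 0.27 (SE), with an unadjusted p of 0.0955 and an adjusted p of 0.423 by edgeR, so it missed the threshold. Leaving out flox 5 gave 0.69 (edgeR adjusted p = 0.237), leaving out flox 1 and flox 4 gave 0.21, and a fit that included the percentage of mitochondrial counts gave 0.25. Flox 1, the library with the lowest Efnb2, also had the lowest Efnb1 and Epha1.

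Efna1 (ENSMUSG00000027954), a lipid-anchored ligand of EphA2, went the other way in CPM in the libraries of high mitochondrial share. It stood at 99.2, 53.2, 79.4, 95.1 and 44.9 CPM in flox and at 49.6, 52.2, 65.1, 79.6 and 64.4 CPM in CKO. Flox 1 and flox 4 were the highest of all 10 libraries in CPM. This order depended on the scaling. In the authors' FPKM, explained below and not scaled for library composition, both stood at 48.7, within a range of 40.6 to 70.8. The log2 fold change was -0.26 ± 0.23 (SE, edgeR adjusted p = 0.578), and it was 0.08 without these 2 libraries. Efna4 (ENSMUSG00000028040), a second lipid-anchored ligand, was lower, at 15.3, 10.7, 11.1, 10.6 and 8.05 CPM in flox against 8.23, 10.3, 10.3, 13.8 and 10.6 CPM in CKO. Its ratio was 0.958, with an interval from 0.720 to 1.27 (edgeR adjusted p = 0.879). In the GENCODE M21 annotation 168 exon bases of Efna4 overlap the antisense gene 4731419I09Rik, and since the strand setting of the counting is not given here, reads there cannot be assigned.

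Levels of different genes were compared per length, in the authors' FPKM (fragments per kilobase of transcript, scaled to the library). Efna1 and Efnb1 led, with means of 57.0 ± 11 and 46.2 ± 16.8 FPKM over 10 libraries (SD). Efna1 was the higher of the pair in 6 of 10 libraries, so their order was not settled by these data, and Efnb1 exceeded the next gene, Ephb4, in 10 of 10. Ephb4 followed at 21.4 ± 10.6 FPKM, Ephb2 at 15.4 ± 5.11, Efnb2 at 14.8 ± 6.33, Epha1 at 11.9 ± 4.57 and Ephb3 at 10.9 ± 4.49 FPKM. Neighbours among these 5 exceeded one another in 6 to 8 of 10 libraries and did not differ beyond their spread. Efna4 stood at 8.48 ± 1.93 and Epha2 at 6.29 ± 2.97 FPKM, with Ephb3 above Efna4, and Efna4 above Epha2, in 7 of 10 libraries. Ephb6 was last at 2.13 ± 1.46 FPKM, below Epha2 in 9 of 10 libraries. The exception was flox 1, with 4.86 FPKM for Ephb6 and 2.55 for Epha2. There the 54 Ephb6 counts and the FPKM imply a transcript length of only 0.514 kb, so this FPKM is uncertain. Without flox 1 and flox 4 the mean of Ephb6 was 1.75 FPKM. FPKM is not scaled for library composition, and flox 1 and flox 4 had the lowest FPKM of all libraries in Ephb2, Ephb3, Ephb4, Epha1, Epha2, Efnb1 and Efnb2.

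**Figure D3:**
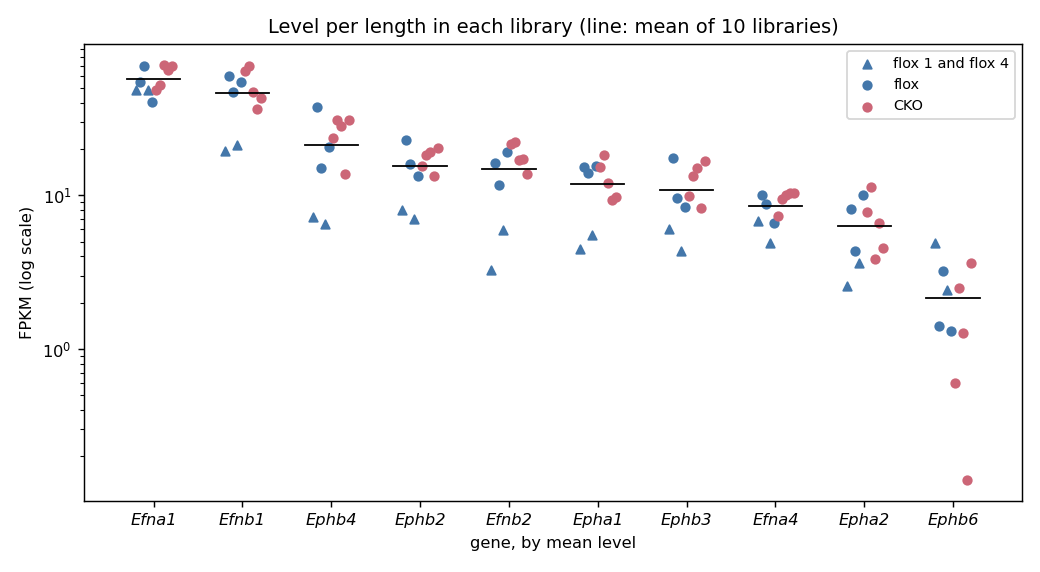
Level per length (FPKM, y axis, log scale) of each gene in each library, ordered by the mean of 10 libraries (line); blue is flox, red is CKO and triangles are flox 1 and flox 4. Efna1 and Efnb1 lead with means of 57.0 and 46.2 FPKM, and Ephb6 is lowest at 2.13 FPKM. Values of Ephb6 run from 0.14 in CKO 4 to 4.86 in flox 1.

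The balance of receptor to ligand within a library does not depend on how libraries are scaled. The ratio of Ephb2 to Efnb1 FPKM was 0.417, 0.383, 0.341, 0.332 and 0.245 across flox 1 to 5, while CKO 1 to 5 gave 0.24, 0.264, 0.407, 0.369 and 0.472. The highest and the lowest library were both CKO, and the means were 0.344 ± 0.0647 and 0.35 ± 0.0975 (SD, n = 5 each). The ratio of Ephb3 to Efnb1 was 0.233 ± 0.0664 in flox and 0.256 ± 0.0946 in CKO. Ephb4 to Efnb2 gave 1.6 ± 0.621 and 1.43 ± 0.546, and Epha2 to Efna1 gave 0.117 ± 0.0813 and 0.12 ± 0.0687. In each of these 4 ratios the group means differed by less than the SD of either group.

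Over libraries the genes varied in ways that crossed the groups. In CPM Efnb1 was highest in CKO 2, CKO 1, flox 5 and flox 2. These 4 libraries were also the lowest in Efna1, at 44.9 to 53.2 CPM against 64.4 to 99.2 CPM in the other 6. This set of 4 libraries was picked after their values were seen and is given as a description. Epha2 was likewise highest in CPM in CKO 2 and flox 5 and lowest in CKO 3 and CKO 5. In FPKM the split of Efna1 did not hold, since flox 1 and flox 4 were at 48.7, below flox 2 at 55.0 and CKO 2 at 52.4.

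**Figure D4:**
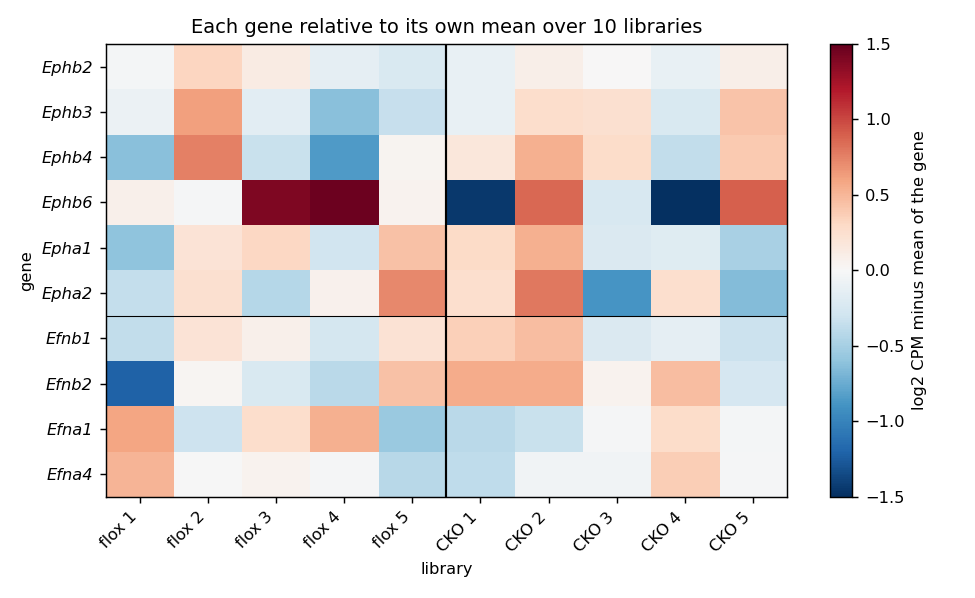
Log2 CPM of each gene minus its own mean over the 10 libraries (colour, limited to ±1.5), with receptors above the thin line, ligands below it, and flox left of the thick line. Efnb1 is above and Efna1 below its mean in flox 2, flox 5, CKO 1 and CKO 2, and Ephb2 has the smallest SD over libraries (0.16).

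Relations were computed for 4 pairs over the 10 libraries on log2 CPM. Ephb2 and Ephb3 varied together, with Pearson's r of 0.81 (two-sided permutation p = 0.004, 0.016 after Benjamini-Hochberg adjustment over the 4 pairs) and Spearman's rho of 0.79 (permutation p = 0.00875, adjusted 0.035). Without flox 2 and flox 5, the libraries farthest from the median of Ephb2, r was 0.68 (exact permutation p = 0.0637, adjusted 0.255), so the call rested on those libraries. Without flox 1 and flox 4 r was 0.82 (exact permutation p = 0.0123, adjusted 0.0493) and rho was 0.74 (exact permutation p = 0.0458, adjusted 0.183). Groups of 5 are too few for a relation within each. Ephb2 with Efnb1 gave r = 0.14 and rho = 0.12 (permutation p = 0.696 and 0.76, adjusted 0.696 and 0.947). Ephb3 with Efnb1 gave r = 0.15 and rho = 0.03 (permutation p = 0.671 and 0.947, adjusted 0.696 and 0.947). Ephb2 with Efnb2 gave r = -0.14 and rho = -0.09 (permutation p = 0.692 and 0.811, adjusted 0.696 and 0.947). Without the 2 libraries farthest on the x axis these 3 pairs gave r of 0.18, 0.29 and -0.07. Without flox 1 and flox 4 they gave 0.01, -0.14 and -0.57 (exact permutation p = 0.989, 0.729 and 0.133, adjusted 0.989, 0.972 and 0.266). The rho of Ephb2 with Efnb2 was then -0.48 (exact permutation p = 0.243, adjusted 0.486). No relation of a base receptor with an ephrin-B ligand thus passed the threshold on log2 CPM. On log2(FPKM + 1), where flox 1 and flox 4 were the lowest libraries for all 4 of these genes, Pearson's r passed for each: 0.84 for Ephb2 with Efnb1, 0.74 for Ephb3 with Efnb1 and 0.76 for Ephb2 with Efnb2 (adjusted permutation p = 0.0128, 0.0172 and 0.0184). Spearman's rho on that scale was 0.53, 0.62 and 0.25 (adjusted permutation p = 0.165, 0.122 and 0.494).

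**Figure D5:**
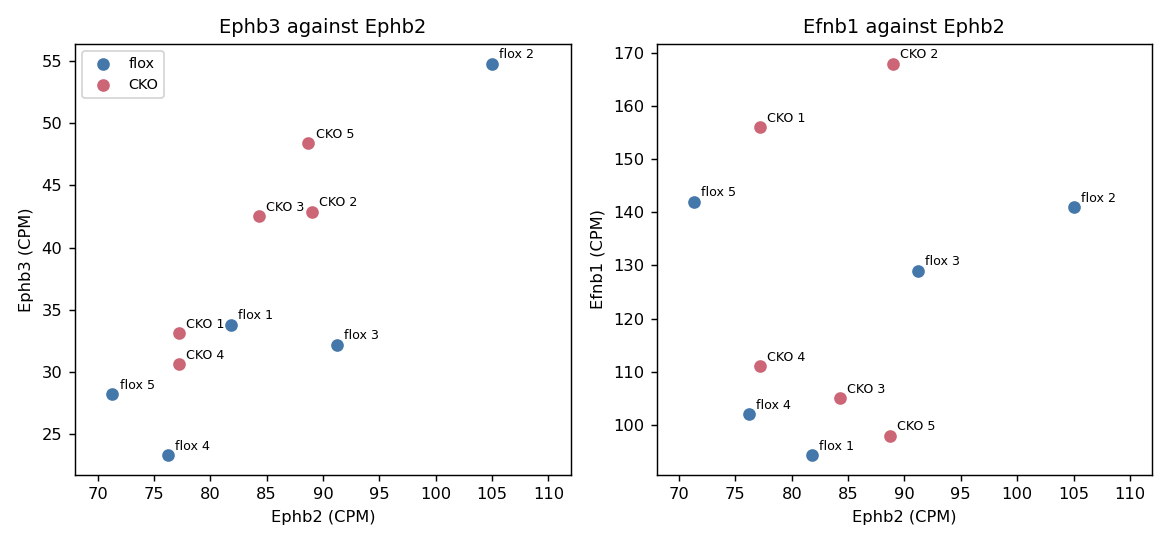
Ephb3 (left) and Efnb1 (right) against Ephb2 in each library, all in CPM, flox in blue and CKO in red; the axes do not start at 0. Ephb3 follows Ephb2 (r = 0.81 on log2 CPM, 0.68 without flox 2 and flox 5) with flox 2 at the upper end. Efnb1 shows no such order (r = 0.14).

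Genes whose pattern over the 10 libraries was most like that of Ephb2 were Mocs1 (r = 0.90), Marcksl1 (0.90) and Wdr90 (0.895), among 8304 other protein-coding genes of at least 10 CPM. Those most like Efnb1 were H2-T23 (0.979), Zbtb7b (0.974) and Tle1 (0.973). Without flox 1 and flox 4 these r were 0.91, 0.891 and 0.929 for Ephb2 and 0.991, 0.962 and 0.963 for Efnb1. Their ranks were then 12, 15 and 5 for Ephb2 and 2, 14 and 11 for Efnb1, so other genes were more alike. The r over 10 libraries are the highest of many correlations over libraries that share their preparation, and H2-T23 has close relatives with which it may share reads.

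Of the 12 other Eph and ephrin genes 9 had a row in the table, and Epha3, Epha6 and Epha10 were not analysed here. Epha5, Epha7, Epha8, Ephb1, Efna2 and Efna5 were too low for the filter, with at most 0.692 CPM in any library. Epha4, a receptor for both ephrin classes, stood at 2.37, 5.93, 4.23, 3.25 and 3.81 CPM in flox 1 to 5 against 6.08, 5.54, 7.51, 3.95 and 7.82 CPM in CKO. All 5 CKO libraries lay above the flox mean of 3.92 CPM, and the groups overlapped. The difference was 0.65 ± 0.26 (SE) on the log2 scale, with an unadjusted p of 0.0298 and an adjusted p of 0.374 by edgeR, and 0.42 without flox 1 and flox 4. Efna3, a lipid-anchored ligand whose gene lies between Efna1 and Efna4 on chromosome 3 of GRCm38, stood at 3.63 ± 0.582 CPM in flox against 2.78 ± 0.467 CPM in CKO (SD, n = 5 each). In 0 of 5 CKO libraries was it above the flox mean, with a log2 fold change of -0.39 ± 0.20 (SE) and an edgeR adjusted p of 0.408. Efnb3 was at or under 0.932 CPM in every library.

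Partners of Eph signalling were described from a list of 51 genes, all tested, among them proteases that cut ephrins, Src and Abl kinases, adaptors and phosphatases. By edgeR 0 passed over all genes, 28 were higher and 23 lower in CKO, and the median log2 fold change was 0.05. At an unadjusted p under 0.05 there were 3 higher, where 5.05% of all genes were, and 0 lower, where 7.91% were, and DESeq2 called 0. The 4 with the smallest p were Pik3r1, a regulatory subunit of PI3 kinase, Ptpn13, a phosphatase that acts on ephrin-B, and the adaptors Nck1 and Crkl. Pik3r1 stood at 43.3 ± 10.9 CPM in flox against 58.7 ± 7.78 CPM in CKO, Ptpn13 at 5.5 ± 1.15 and 8.72 ± 3.44 CPM, Nck1 at 10.3 ± 3.34 and 14.2 ± 1.30 CPM, and Crkl at 24.1 ± 4.80 and 30.2 ± 4.0 CPM (SD, n = 5 each). Their edgeR adjusted p values were 0.374, 0.374, 0.381 and 0.391. Leaving out flox 1 and flox 4 moved their log2 fold changes from 0.44 to 0.25 for Pik3r1, 0.66 to 0.55 for Ptpn13, 0.45 to 0.22 for Nck1 and 0.32 to 0.17 for Crkl, and the list gave 25 higher and 26 lower with a median of -0.01.

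Genes that mark the base and the top of the crypt gave the setting of these values. Among 17 tested Wnt targets, 10 had a higher and 7 a lower level in CKO, with a median log2 fold change of 0.04, and 0 passed in edgeR or DESeq2. At an unadjusted p under 0.05 there was 1 of 17, against 13.0% of all genes: Prox1, at 1.11 ± 0.276 CPM in flox against 0.613 ± 0.276 CPM in CKO (edgeR adjusted p = 0.377). Tcf7, a partner of beta-catenin, stood at 3.43 ± 0.461 and 4.5 ± 0.757 CPM (adjusted p = 0.392 by edgeR), and Lgr5 itself at 2.99 ± 1.68 and 4.73 ± 2.16 CPM (0.465). Lgr5 had a log2 fold change of 0.64 with all libraries and 0.30 without flox 1 and flox 4. Since 1 Lgr5 allele holds the knock-in in CKO mice only, Lgr5 counts are not an unaltered marker of the crypt base. Of 15 crypt top genes 8 were higher and 7 lower (median 0.06), and 0 passed with all libraries. At an unadjusted p under 0.05 there were 2 of 15 higher, where 5.05% of all genes were, and 0 lower, where 7.91% were. The 2 were the anion exchanger Slc26a3, at 194 ± 93.0 and 331 ± 41.3 CPM, and the phosphate carrier Slc20a1, at 90.7 ± 25.6 and 150 ± 62.5 CPM (edgeR adjusted p = 0.366 and 0.372). Their log2 fold changes were 0.77 and 0.73 with all libraries, and 0.63 and 0.97 without flox 1 and flox 4 (edgeR adjusted p = 0.772 and 0.721). Without flox 1 and flox 4 DESeq2 called 2 of the 15, against 0.402% of all genes, and edgeR called 0. They were the water channel Aqp8 and the acute phase gene Saa1, at log2 fold changes of 1.65 and 1.42 (adjusted p = 0.00352 and 0.00372). In the edgeR fit of all 10 libraries both stood at 0.66 (adjusted p = 0.509 and 0.446).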

How the data were processed

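RNA from colon crypts was sequenced in 5 flox and 5 CKO libraries. The authors deposited raw counts per gene and FPKM values per gene. Reads were trimmed with fastp and aligned with HISAT2, per the submitters' processing notes. For the counting tool, its strand setting, the genome build and the annotation: not given in the sources used here. Groups follow the labels. Genes low in count were dropped with filterByExpr, and the deposited counts were fitted with edgeR 4.0.16 (TMM scaling, robust quasi-likelihood test, all 10 libraries, no covariate) in R 4.3.3, with Benjamini-Hochberg adjustment over the 14963 genes tested. DESeq2 1.42.0, limma 3.58.1 and other alternatives were also run. The edgeR script was tested on simulated data. CPM were computed with TMM scaling. Symbols were matched for 26095 of 33632 IDs. Correlations used 100000 permutations, or all permutations for 8 libraries. FPKM, which are per length, were used for levels and ratios.

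The 10 genes, the gene lists and the libraries set apart were chosen with earlier results of these data known. Named beside the 10 were Sox21, Lgr5, the tested other Eph and ephrin genes, the 4 pathway partners and the 2 Wnt targets and 2 crypt top genes with the smallest p, and the 3 genes most like Ephb2 and Efnb1. Libraries with the same replicate number did not deviate together in every pair, so the numbers were not used as a pairing.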

Additional observations from a re-analysis of the deposited data

How the results depend on the processing

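In each of 25 alternatives 0 of the 10 genes passed an adjusted p of 0.05, and the smallest adjusted p of any was 0.164, for Ephb6. Ephb6 stayed lower and Efnb2 higher in CKO in all 25. Over all genes, edgeR called 0 higher and 0 lower. DESeq2 called 58 and 107, voom with quality weights 15 and 29, edgeR without a filter 1 and 2, and DESeq2 without flox 1 and flox 4, an alternative chosen after seeing the data, 33 and 35. A covariate of mitochondrial share gave 0 called higher and 1 lower, and leaving out each library in turn called 0 to 2 lower.

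Some log2 fold changes changed sign, among them those of Ephb4, Efna1, Efna3 and Sox21, which were not near 0. With library totals the median over all genes was 0.36, and Ephb2 stood at 0.31, Epha1 at 0.24, Epha2 at 0.25, Efna1 at 0.21 and Efna4 at 0.34. On log2(FPKM + 1) the median was 0.30 and these 5 were 0.44, 0.33, 0.27, 0.23 and 0.34, with Efna3 at 0.01. On log2(FPKM + 0.1) it was 0.41 and they were 0.48, 0.38, 0.32, 0.23 and 0.38, with Efna3 at 0.03. These values are to be read relative to the medians. Under that covariate Ephb3 was -0.04, Ephb4 -0.08, Efnb1 -0.12, Efna1 0.12, Efna4 0.11 and Sox21 -0.01. Efnb1 was -0.02 under voom with quality weights. Without flox 1 and flox 4 Efnb1, Efna1 and Efna4 were -0.10, 0.08 and 0.11 by edgeR and -0.10, 0.07 and 0.10 by DESeq2. Leaving out each library in turn gave -0.09 to 0.06 for Ephb2, -0.19 to 0.08 for Epha1, -0.27 to 0.18 for Epha2, -0.05 to 0.15 for Efnb1 and -0.17 to 0.08 for Efna4. The r of Ephb3 with Efnb1 was -0.14 without flox 1 and flox 4, and that of Ephb2 with Efnb2 was 0.76 on log2(FPKM + 1), where flox 1 and flox 4 were lowest in both genes. Except for the medians given, the cause was not tested.

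Same-numbered libraries deviated together (r over 0.1) in 2 of 5 numbers, and 2 of 10 libraries correlated best with their own number. With the replicate block edgeR called 0 genes higher and 0 lower, and the median over the 10 Eph and ephrin genes was -0.03. Low counts limit Ephb6 most, with 9 counts in its lowest library.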

Other observations

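The transcript length implied by the deposited counts and FPKM differed little between libraries for 9 of the 10 genes, with Ephb2 the widest of these at 5.54 to 6.54 kb. For Ephb6 it ran from 0.514 kb in flox 1, with 54 counts and 4.86 FPKM, to 3.48 kb. Its FPKM and its counts therefore rank the libraries differently. In none of the 20 groups of 5 libraries that the 10 genes give did the highest or lowest library stand apart by Dixon's test.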
